A study of Mus musculus with 14 samples.

Results

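The Serpina protease inhibitor cluster of mouse chromosome 12 was read here as the poly(A) sites, the places where RNAs end in a poly(A) tail, that lie at chr12:104850000-105800000 of build mm9, on both strands. Sites came from 3P-seq, which sequences tags from the ends of polyadenylated RNAs. Of 159969 sites found after intervals that overlap or touch on one strand were merged over 14 libraries, 174 lay in the cluster. The rule puts Serpina1 copies near one end and Serpina3 copies near the other, and the region was divided accordingly into a Serpina1 window (chr12:104850000-105249999, 68 sites), a middle window (chr12:105250000-105449999, 42 sites) and a Serpina3 window (chr12:105450000-105800000, 64 sites). No mm9 gene annotation was used, so a site is named by its mm9 position and is not tied to a gene, and the window names say where the rule places the copies, not which gene a site ends.

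Serpins are inhibitors that trap a protease by changing shape once it cuts them. The SERPINA1 product, α1-antitrypsin, restrains neutrophil elastase and is secreted mainly by the liver, and the SERPINA3 product, α1-antichymotrypsin, is an acute-phase protein of plasma that inhibits cathepsin G. In mouse both are represented by families of tandem copies, with related genes between and beside them such as Serpina6, which encodes corticosteroid-binding globulin, Serpina12, which encodes vaspin, and Serpina5, which encodes the protein C inhibitor.

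Wild-type and miR-22 knockout mice gave liver, kidney, white adipose tissue (WAT), lung, heart and muscle, with 1 library per tissue and genotype, and mouse embryonic stem cells (mESC) and the fibroblast line 3T3 gave 1 library each. The labels give the genetic background 129S5/SvEvBrd for all 14 libraries, knockout and cell lines included. Age, sex and the number of animals behind a library are not given in the sources used here. Libraries held between 2036838 tags (adipose, knockout) and 6010465 tags (lung, knockout), and mitochondrial sites took 2.43% to 31.3% of them. Without gene names, neither the tissue labels nor the loss of miR-22 could be checked against a marker. As there are no biological replicates, the 2 libraries of a tissue stand for its spread, and in bulk tissue fewer cells of a type and less RNA per cell cannot be told apart.

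The knockout removes the microRNA whose mature forms are printed first, from RefSeq GRCm38.p6, with the seed (bases 2 to 8) in capitals, since that is the genotype compared throughout.
mmu-miR-22-3p: aAGCUGCCaguugaagaacugu
mmu-miR-22-5p: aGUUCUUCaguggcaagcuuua

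RefSeq GRCm38.p6 lists 28 Serpina genes in the cluster: 6 Serpina1 copies, all on the minus strand, 14 Serpina3 copies, 4 of them pseudogenes, and 8 others. Promoters (250 bases before to 50 after the annotated start) were at hand for all 6 Serpina1 copies and for 8 Serpina3 copies, of which 7 lie on the plus strand and Serpina3c on the minus strand. The letters GTTAAT, one arm of the palindrome bound by the liver-enriched factor HNF1, occurred on either strand in 5 of the 6 Serpina1 promoters, in 1 of the 8 Serpina3 promoters (Serpina3c) and in 7.1% of all 32851 promoters. The stretches around it in those 5 promoters are printed because they show how alike the copies are at their starts; the RNA ends that gave the tags were not read as sequence here. The capitals mark GTTAAT.
Serpina1a (chr12:103863591-103863690, GRCm38.p6, minus strand): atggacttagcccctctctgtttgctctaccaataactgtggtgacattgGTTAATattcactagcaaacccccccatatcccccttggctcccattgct
Serpina1b (chr12:103738166-103738265, GRCm38.p6, minus strand): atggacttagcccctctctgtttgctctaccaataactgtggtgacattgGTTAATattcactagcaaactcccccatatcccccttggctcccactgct
Serpina1c (chr12:103904928-103905027, GRCm38.p6, minus strand): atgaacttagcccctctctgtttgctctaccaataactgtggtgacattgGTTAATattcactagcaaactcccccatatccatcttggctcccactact
Serpina1d (chr12:103773600-103773699, GRCm38.p6, minus strand): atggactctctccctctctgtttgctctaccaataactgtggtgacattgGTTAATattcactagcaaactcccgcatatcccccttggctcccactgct
Serpina1e (chr12:103956926-103957025, GRCm38.p6, minus strand): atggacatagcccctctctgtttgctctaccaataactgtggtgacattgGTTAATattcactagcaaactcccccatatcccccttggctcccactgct
Of the 100 bases, 88 were identical in all 5, any pair shared 91 to 99, and an unbroken run of 59 that includes GTTAAT was the same in every copy. Of the other motifs searched on both strands, the full HNF1 palindrome was in none of these promoters (0.00913% of all), the C/EBP palindrome TTGCGCAA was in that of Serpina5 (0.183% of all), the STAT motif TTCNNNGAA was in Serpina1f, Serpina11 and 3 Serpina3 copies (Serpina3f, Serpina3g and Serpina3i; 8.3% of all), and TATAAA was in no Serpina1 promoter and in 4 Serpina3 promoters (Serpina3a, Serpina3b, Serpina3c and Serpina3f; 13.6% of all). A match of letters describes the sequence and is not evidence of binding.

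Most tags of the cluster came from liver. Liver libraries held 97.0% of its 46607.7 tags, and the 129 and 131 sites with tags in wild-type and knockout liver compare with 4 to 9 in heart and muscle, 28 to 43 in lung, adipose and kidney, 8 in mESC and 1 in 3T3. In liver the cluster took 0.596% of all tags of the wild-type library and 0.603% of the knockout library. For 133 of the 174 sites liver had the highest mean level, for 23 adipose, for 15 lung and for 3 kidney. Tags in liver alone were found at 89 sites, and 25 sites had no liver tag. Such counts were not made over all 159969 sites, so they describe the cluster only.

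The Serpina1 window reached 4193 CPM (tags relative to library size, scaled by TMM) in wild-type and 3630 CPM in knockout liver, 3912 ± 398 (SD, n = 2). In kidney it stood at 32.4 and 41.0 CPM, in lung at 5.89 and 8.49, and in adipose at 4.70 and 11.1. Heart, at 0.906 and 0.330 CPM, and muscle, at 0.453 and 0.654, held 1 or 2 tags in each library. The lower liver library was 88.5-fold above the highest library of any other tissue, so liver did not overlap with the rest.

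The middle window reached 1370 and 1442 CPM in wild-type and knockout liver (1406 ± 50.7, SD, n = 2), and adipose followed with 42.3 and 62.2 CPM. Kidney had 7.10 and 11.6 CPM, lung 1.77 and 3.00, muscle 1.36 and 5.88, and heart 0.906 and 0.330. The lower liver library was 22.0-fold above the highest other library, which was adipose.

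The Serpina3 window gave 1296 and 1371 CPM in liver (1333 ± 53.2, SD, n = 2), again with wild type first. Adipose, with 16.9 and 21.0 CPM, and lung, with 18.4 and 16.0, overlapped each other and lay above kidney, with 8.52 and 10.8. Heart had 0.906 and 2.97 CPM and muscle 0.905 and 2.62. The lower liver library exceeded the highest other library 61.7-fold.

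**Figure D1:**
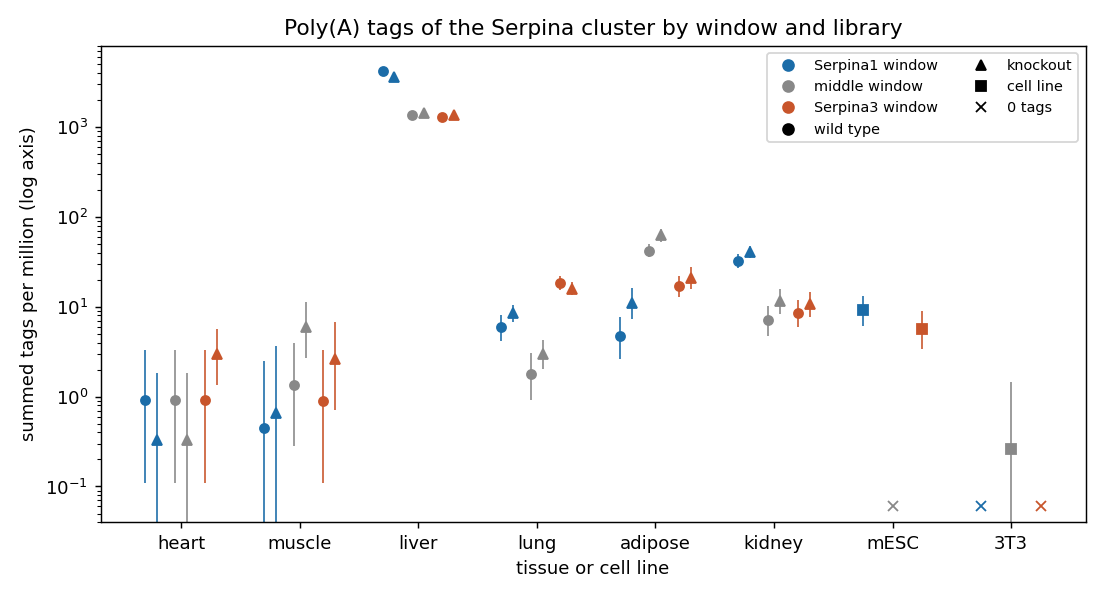
Summed CPM (log axis) of the 3 windows in each library, with exact Poisson 95% intervals of the tags; circles are wild type, triangles knockout, squares cell lines and crosses libraries with 0 tags. Liver stands above every other tissue in all 3 windows, from 1296 to 4193 CPM against at most 62.2 CPM elsewhere.

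For each window, the exact two-sided permutation test of the 2 liver libraries against the other 10 gave p = 0.0303, the smallest that 66 splits allow. After Benjamini-Hochberg adjustment over 18 window and tissue tests this was 0.136, so no window and tissue passed 0.05. The intervals of the tags cover counting error only.

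**Figure D2:**
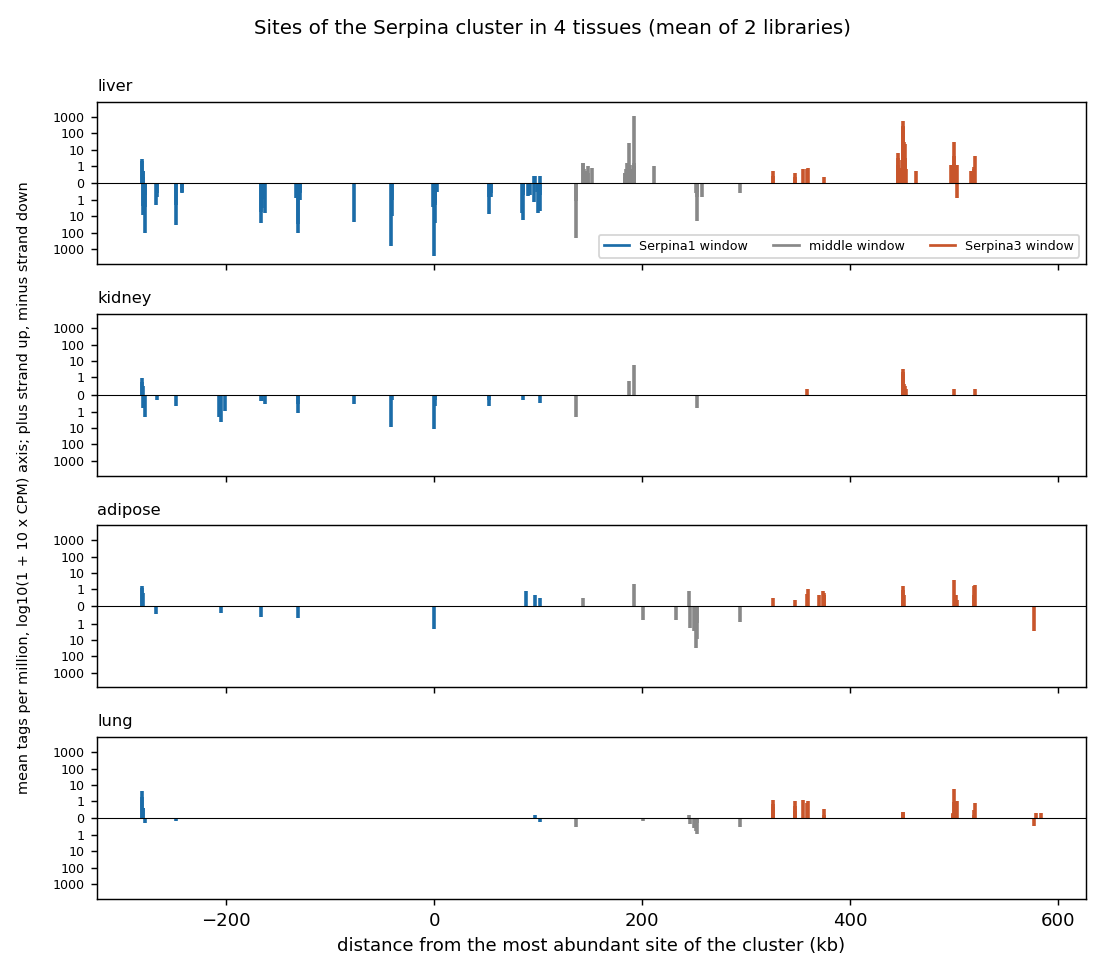
Mean level of each site in liver, kidney, adipose and lung against its distance in kb from the most abundant site of the cluster, with plus-strand sites above and minus-strand sites below the line on a log10(1 + 10 × CPM) axis. The Serpina1 window lies on the minus strand and the Serpina3 window on the plus strand, and adipose has its main sites on the minus strand of the middle window.

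The 2 outer windows were read from opposite strands. Minus-strand sites held 99.1% of the tags of the Serpina1 window and 0.326% of those of the Serpina3 window, and the middle window was mixed at 19.8%. In adipose the middle window was almost wholly on the minus strand, with 97.0% and 92.1% of its tags in wild type and knockout against 20.5% or less in liver, so the middle-window levels of the 2 tissues rest on different sites. In lung 39 of 40 and 79 of 82 Serpina1-window tags lay on the plus strand, opposite to the strand of the Serpina1 copies in RefSeq.

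Of the 174 sites, 38 passed the filter on low counts and hold 97.9% of the cluster's tags; the other 136 had a median of 4 tags and at most 40 over all libraries. The filter admits a site that is high in a single tissue, and without the liver pair only 10 cluster sites passed it, so the counts of liver calls below describe the sites and support nothing about the list. In an edgeR quasi-likelihood fit over 23856 sites of the genome with Benjamini-Hochberg adjustment, a call needed 4-fold or more between a tissue and the mean of the other 5, with the adjusted p below 0.05. Called higher in liver were 33 of the 38, against 13.8% of all sites tested, namely 20 of 22 in the Serpina1 window, 4 of 7 in the middle window and 9 of 9 in the Serpina3 window. DESeq2 called 19 of the 38. Fitted fold differences of sites with libraries at 0 depend on the prior count, so levels are given in their place.

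The site at 105132884 on the minus strand was the most abundant of the cluster, with 10404.4 and 8436.6 tags, or 2852 and 2693 CPM, in wild-type and knockout liver. Kidney had 11.4 and 13.2 CPM and adipose 0.313 and 4.12 CPM, and no tag was seen in lung, heart, muscle, mESC or 3T3. Mean liver was 225.5-fold above mean kidney, and its adjusted p against the other tissues was 2.06e-34 (edgeR). Without the intervals whose deposited value is not whole, that adjusted p became 0.071 and the call was lost, while the other alternatives kept it, with edgeR or DESeq2 adjusted p from 5.7e-196 to 2.24e-13.

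The site at 105091569 (minus strand) followed, with 788 and 541 CPM in wild-type and knockout liver and 7.33 and 9.44 in kidney. It had 0 tags in every other library, and its edgeR adjusted p for liver was 1.04e-31. The site at 104854887 (minus strand) stood at 170.5 CPM in wild-type liver and at 55.9 CPM in the knockout, with 2.60 and 1.89 in kidney, and the 2 liver libraries thus differed more than at the sites above. The site at 105001805 had 94.3 and 110.4 CPM in liver and 1.42 and 0.810 in kidney, and the one at 104884836 had 41.9 and 26.5 CPM in liver and 3 tags in wild-type kidney.

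In the middle window 1 plus-strand site, at 105325120, held most of the liver tags. Its 1143 and 1094 CPM in wild-type and knockout liver compare with 4.97 and 7.28 in kidney, 0.627 and 3.71 in adipose and 0 tags in lung and heart. The minus-strand site at 105269196 had 158 and 281 CPM in liver and 1.66 and 2.70 in kidney. At 105320240, on the plus strand, liver had 18.9 and 34.5 CPM, and kidney had 4 tags, all in the knockout.

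The middle window also held the most abundant adipose sites of the cluster, and 10 of its 42 sites were highest in adipose, a share not counted over all sites. At 105384721 (minus strand) adipose stood at 22.2 CPM in wild type and 39.5 CPM in knockout, muscle at 1.36 and 3.27, heart 0.906 and 0.330, lung 0.442 and 0.621, liver 0.274 and 0.319, and kidney 0 tags. Adipose did not overlap with any other tissue there, and the site was called higher in adipose (edgeR adjusted p = 1.08e-20) and lower in kidney (edgeR adjusted p = 0.00062). At 105385129 (minus strand) adipose had 9.71 and 9.47 CPM against at most 0.932 elsewhere. The next site, 97 nt away at 105385226, had 30.4 and 10.2 CPM in liver and 0.940 and 0.823 in adipose, so the neighbouring ends were used in opposite order by liver and adipose. Called higher in adipose were 4 of the 38 sites, against 8.65% of all sites tested, and 3 of them were in the middle window. Markers of adipocytes could not be read without gene names, and their part in these levels was not tested.

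In the Serpina3 window 4 liver sites lay within 314 nt on the plus strand. The most distal of the 4, at 105583948, had 520.5 CPM in the wild-type liver library and 618 CPM in the knockout, 2.37 and 4.86 in kidney, 0.940 and 2.47 in adipose and 0 tags in heart and muscle. At 105583634 liver had 277 and 262 CPM, at 105583875 it had 251 and 233, and at 105583780 it had 119 and 126, and wild type and knockout stayed close at each. The site at 105584353, further downstream, had 27.7 and 35.1 CPM in liver.

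The site at 105632465 (plus strand) was the broadest of the Serpina3 window. Its level was 29.1 and 26.2 CPM in liver, 6.19 and 5.07 CPM in lung, 5.01 and 2.47 CPM in adipose, 3.77 CPM in mESC, 0.453 and 0.660 in heart, 0.453 and 1.31 in muscle, and 0.237 CPM and 0 tags in kidney. Lung and adipose both lay below liver and above heart, muscle and kidney. It was called higher in liver (edgeR adjusted p = 4.6e-17) and lower in kidney (edgeR adjusted p = 5.78e-05). It made up 33.6% and 31.8% of the Serpina3-window tags in wild-type and knockout lung (Wilson 95% intervals 25.9% to 42.3% and 25.0% to 39.5%) and 2.24% and 1.91% in liver. Unlike 105632465, which was highest in liver, 14 plus-strand sites of the window were highest in lung. They held 51 and 69 lung tags in all, and this too was not counted over all sites.

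Beyond liver, the outer windows took different shares. The Serpina3 window held 23.6% and 27.4% of the tags of both outer windows in wild-type and knockout liver, and 20.8% in each kidney library. In lung it held 75.8% and 65.3%, and in adipose 78.3% and 65.4%. Kidney thus had a balance near that of liver at far lower levels. Heart and muscle had 3 to 10 tags in both windows together. Their Serpina1-window tags all lay on the plus strand, opposite to the strand of the Serpina1 copies in RefSeq. In wild type 2 of 4 heart tags and 2 of 3 muscle tags were in the Serpina3 window, with exact binomial 95% intervals (6.76% to 93.2% and 9.43% to 99.2%) that take in all of these shares. In knockout they were 9 of 10 in heart (55.5% to 99.8%) and 4 of 5 in muscle (28.4% to 99.5%), with both intervals above the liver and kidney intervals. The log2 ratio of the Serpina3 to the Serpina1 window was -1.90 in both kidney libraries, lower than in the other 10 (exact two-sided permutation p = 0.0303, the smallest possible, and 0.182 adjusted over 6 tissues), and -1.69 and -1.40 in liver (exact permutation p = 0.182, adjusted 0.545).

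**Figure D3:**
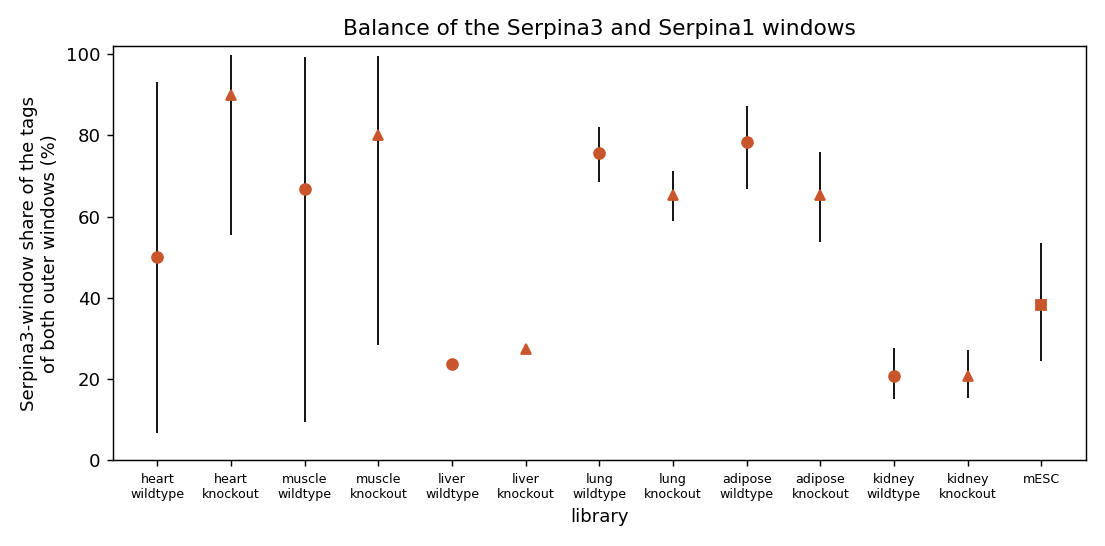
Share of the Serpina3 window in the tags of both outer windows for each library (%), with exact binomial 95% intervals; 3T3 had no tag in either. Liver and kidney libraries sit between 20.8% and 27.4%, and lung and adipose libraries between 65.3% and 78.3%.

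The lung share rests on a pair of plus-strand sites at the edge of the region, since the sites at 104851964 and 104852039 gave 37 of 40 wild-type and 69 of 82 knockout Serpina1-window tags in lung, and 24 of 29 in mESC. At 104851964 lung had 3.98 and 4.76 CPM, above adipose with 2.19 and 0.823 and liver with 1.92 in each library, and it was called higher in lung (edgeR adjusted p = 2.49e-05). At 104852039, outside the naming rule and named after its values were seen, lung had 1.47 and 2.38 CPM, below liver with 1.92 and 3.51 and mESC with 6.28, and the site was called higher in both lung and liver (edgeR adjusted p = 0.00313 and 0.000772). These were the 2 sites of the 38 called higher in lung, against 12.5% of all sites tested. Whether they end an RNA of a Serpina gene was not tested.

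Kidney was called higher at 9 of the 38 sites and lower at 2, against 13.8% and 4.07% of all sites tested. At 8 of the 9, liver was still 50.4-fold to 225.5-fold above kidney, so these are sites at which kidney ranked after liver. DESeq2 called 3 sites higher in kidney. The exception was the minus-strand site at 104927852, named here after its values were seen. Kidney had 11 and 23 tags there (2.60 and 6.21 CPM), adipose 1 tag, and liver 0 tags. The floor of 3 counts set here equals 0.822 and 0.958 CPM in wild-type and knockout liver. Kidney also divided the Serpina1 window differently. The site at 105132884 made up 68.0% and 74.2% of the window's tags in wild-type and knockout liver (Wilson 95% intervals 67.3% to 68.7% and 73.4% to 75.0%) and 35.0% and 32.2% in kidney (27.6% to 43.3% and 25.3% to 40.0%). The intervals of the 2 tissues did not meet, while the 2 kidney libraries overlapped. Those of the 2 liver libraries did not meet either, and the intervals cover counting error only. In liver, intervals with values that are not whole held 30.9% and 54.7% of the cluster's tags, and kidney had none, which makes the liver shares of single sites uncertain.

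**Figure D4:**
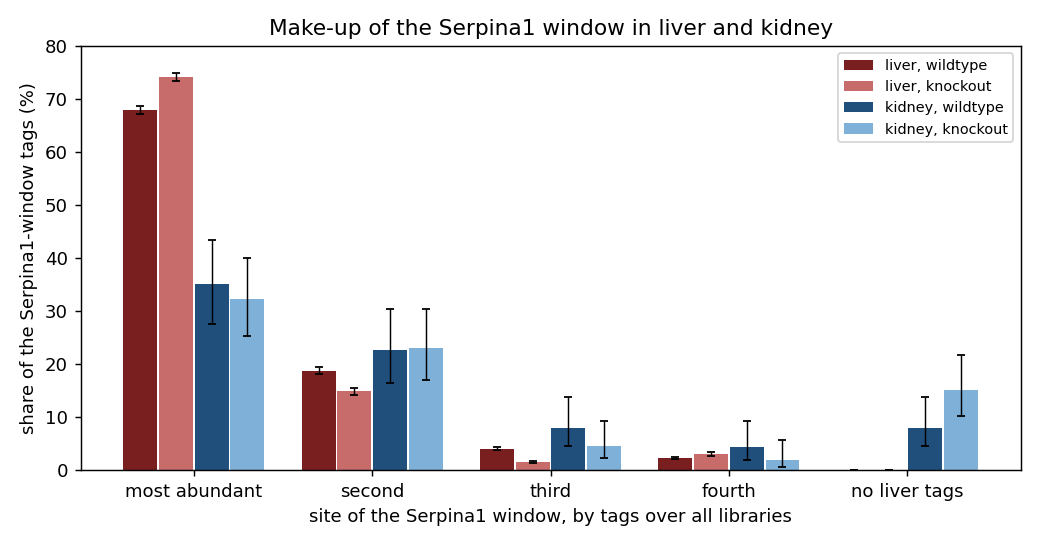
Share of the Serpina1-window tags (%) at its 4 most abundant sites and at the kidney site with no liver tags, in the liver and kidney libraries, with Wilson 95% intervals. The most abundant site gives 68.0% and 74.2% in liver but 35.0% and 32.2% in kidney.

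The remaining directions gave few or no calls. Heart was called lower at 1 of the 38 sites, 105583780 (edgeR adjusted p = 0.026), against 2.98% of all sites tested, and that call was lost without either heart library. The edgeR test called 0 sites higher in heart (background 9.15%), higher in muscle (8.61%), lower in muscle (6.86%), lower in liver (9.88%), lower in lung (4.71%) and lower in adipose (3.39%). At an unadjusted p under 0.05 these directions held 1 site, higher in muscle, and DESeq2 called 1 lower in muscle, 6 lower in lung and 0 in the others. Where a tissue held 0 tags in both libraries, the F statistic of the edgeR test was often at or near 0. At 105091569 this was so in muscle and in lung, and a lower call could not be made there. The edgeR counts of lower calls, adjusted or not, therefore do not show that these tissues were not low.

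Over the 14 libraries, the sites whose log2(CPM + 1) was most like that of 105132884 were 105325120 in the middle window (Pearson r = 0.9966), 105583948 in the Serpina3 window (r = 0.9928) and 105091569 (r = 0.9875). The nearest matches thus include sites 192236 nt and 451064 nt away on the other strand. The points share these libraries, and the 2 liver libraries lie far above the rest at every one of these sites.

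Between genotypes no site of the cluster was called. In the edgeR fit 0 of 38 sites were higher and 0 lower in knockout at an adjusted p under 0.05, against 0.277% and 0.0671% of all sites tested, and DESeq2 also called 0. At an unadjusted p under 0.05 there was 1 site, 105320240 (log2 difference 1.12 ± 0.55 SE, edgeR adjusted p = 0.693), against 6.97% of all sites tested. That SE was derived from the log2 difference and the F statistic of its test. The median log2 difference of the 38 was -0.04, with 17 higher in knockout, beside -0.02 over all 23856 sites, with 11396 higher. By window the median was -0.11 in the Serpina1 window (9 of 22 higher), 0.61 in the middle window (5 of 7) and -0.04 in the Serpina3 window (3 of 9). These medians and counts were not tested.

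No window passed the test either. Over the 6 tissues the knockout differed from wild type by a mean of 0.22 on the log2 scale in the Serpina1 window (SD 0.77, higher in 4 of 6 tissues), 0.47 in the middle window (SD 0.94, 5 of 6) and 0.51 in the Serpina3 window (SD 0.62, 5 of 6). Exact two-sided sign-flip tests gave p = 0.531, 0.281 and 0.0938, with 0.03125 the smallest possible, and 0.625, 0.562 and 0.375 after adjustment over 4 tests. Single tissues weighed on these means. The Serpina1 value was 0.03 without the adipose pair and 0.47 without the heart pair. In that window muscle counted as higher with 1 tag in each library, and lung tags lay mostly on the plus strand. The middle value was 0.20 without the muscle pair (3 and 9 tags) and 0.77 without the heart pair (2 and 1 tags). The Serpina3 mean rested largely on heart (log2 difference 1.28, 2 and 9 tags) and muscle (1.27, 2 and 4 tags). Liver, lung, adipose and kidney gave 0.08, -0.21, 0.31 and 0.34 in the Serpina3 window. The log2 ratio of the Serpina3 to the Serpina1 window moved by 0.29 (SD 1.17, 3 of 6, exact sign-flip p = 0.625), and by -0.12 without the heart pair.

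Within liver, where depth allowed single sites to be compared, 20 cluster sites had a mean of 20 CPM or more. None was 2-fold higher in the knockout library (3.78% of all such liver sites) and 2 were 2-fold lower (4.53%), with 1 library a side and no test. At 104854887 the knockout library was 3.05-fold lower (exact binomial 95% interval 2.58 to 3.63) and at 105385226 it was 2.98-fold lower (1.99 to 4.56). Tag values that are not whole entered both, with 622.4 and 175.3 in wild type and knockout at 104854887 and 32.2 in knockout at 105385226. The intervals do not cover how such tags were divided among sites. The site at 105269196 was 1.78-fold higher (1.60 to 1.98). Among the 4 most abundant liver sites, the ratio of knockout to wild type was 0.944 at 105132884, 0.957 at 105325120, 0.687 at 105091569 (0.647 to 0.730) and 1.19 at 105583948. By window the ratio was 0.866 (0.845 to 0.887) for Serpina1, 1.05 (1.01 to 1.10) for the middle window and 1.06 (1.01 to 1.10) for Serpina3, and with total counts as the scale it was 0.933, 1.13 and 1.14.

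**Figure D5:**
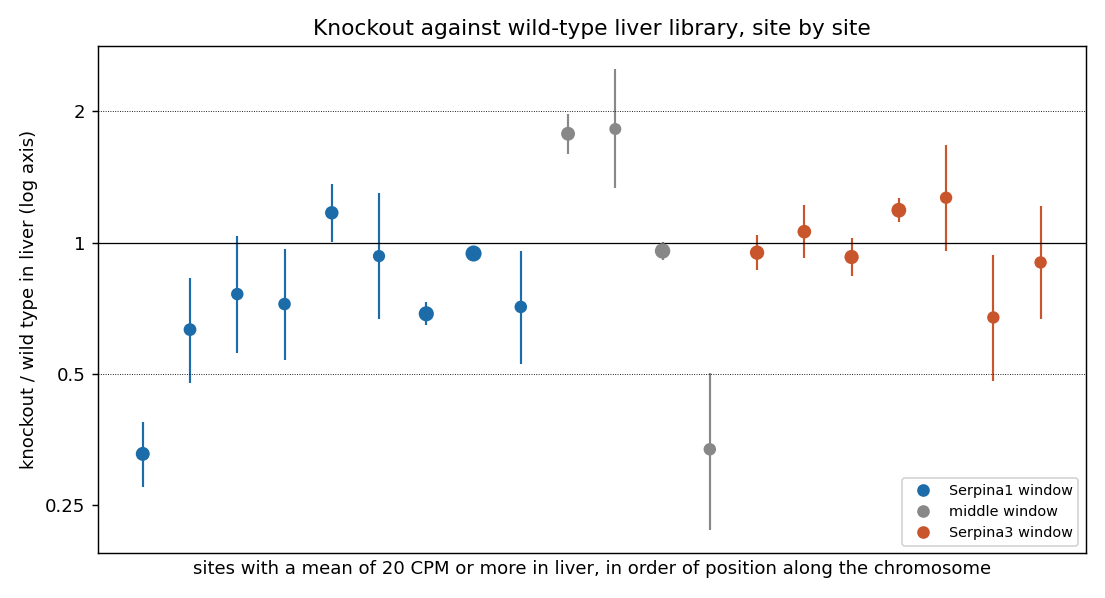
Ratio of the knockout to the wild-type liver library (log axis) at the 20 cluster sites with a mean of 20 CPM or more, with exact binomial 95% intervals; dotted lines mark 2-fold, and larger points have more wild-type CPM. Of the 20 sites, 2 lie below the lower line, at 3.05-fold and 2.98-fold lower in knockout, and none lies above the upper line.

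Values that are not whole numbers occurred in the cluster in liver alone, at 9 of 198 wild-type and 12 of 196 knockout intervals, which held 30.9% and 54.7% of the cluster's tags in those libraries. The source of these fractions and the handling of reads that fit several copies are not given in the sources used here, so the division of tags among single sites of the copies is uncertain.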

How the data were processed

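3P-seq libraries were made from total RNA of mouse tissues and 2 cell lines. Bases were called with CASAVA 1.7 and reads aligned with Bowtie to mm9, as the submitters' processing notes list. The authors deposited, per library, intervals with a strand and an estimated count of tags, not scaled.

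Same-strand intervals that overlap or touch were merged over libraries. A site's position is the downstream end of its interval with most tags; most track lines name an offset of 1, left unapplied, which could place a site 1 nt away. Estimated counts were summed and rounded for the fit. Sites were kept by filterByExpr (tissue as group, minimum count 10), scaled by TMM and fitted with edgeR 4.0.16 in R 4.3.3 (terms for tissue and genotype, 12 tissue libraries, 5 residual degrees of freedom, common biological coefficient of variation 0.31); DESeq2 1.42.0 was an alternative. The fit was also run on simulated counts with known changes. For the liver contrast these started from equal levels in all tissues, unlike cluster sites with 0 tags in most tissues. That run does not bear on the calls at such sites. P-values measure the spread between single libraries. Window levels were compared between tissues on the log2 scale after adding 1 CPM, by exact permutation tests. For the ratio of windows and for genotype differences, 1 tag was added to each sum before the exact permutation and sign-flip tests. These treat libraries as exchangeable although tissues gave 2 each. Intervals are at 95%; they and the floor of 3 counts cover counting error only.

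Sites named are, per window, the 5 of highest CPM in any library, the most abundant site of each tissue, and any genotype call; exceptions are stated. The region, windows, lists and motifs were chosen with earlier results of these data known. Promoter and miRNA sequences are from RefSeq GRCm38.p6, and no coordinate was converted between builds.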

Additional observations from a re-analysis of the deposited data

Results flagged for a closer look

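The Serpina1 window moved in opposite directions with genotype in adipose and liver: the knockout library held 2.365 times the wild-type level in adipose (15 and 27 tags, exact binomial 95% interval 1.21 to 4.78) and 0.8656 times in liver. In the adipose knockout library the site at 105132884, the most abundant liver site, had 10 tags against 1 in wild type, and the top liver sites of the other windows were also higher there, with 9 against 2 tags at 105325120 and 6 against 3 at 105583948; the part of liver-abundant sites in the adipose ratio was not tested. This difference between tissues was not tested.

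mESC, which entered no test, had 29 tags in the Serpina1 window, all on the plus strand. It had 18 tags in the Serpina3 window, 12 of them at 105632465, while 3T3 had 1 tag in the whole cluster.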

How the results depend on the processing

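The labels give no replicate numbers, so no replicate block was fitted; wild type and knockout were paired by tissue, in the edgeR tissue term and the sign-flip tests. Of the counts of called sites, 101 values under an alternative stayed within 1.5 times and 19 did not. With DESeq2, 19 sites were called higher in liver (33 in edgeR), 3 higher in kidney (9), 2 higher in adipose (4), 1 higher in lung (2), 6 lower in lung (0), 3 lower in heart (1) and 1 lower in muscle (0). With total counts, 4 were higher in lung, 2 lower in heart and 2 lower in muscle, and the median genotype difference of all sites moved from -0.02 to 0.16 on the log2 scale. With no filter, 62 were higher in liver, 10 higher in lung and 0 lower in heart. Merging across 24 nt gave 2 lower in heart, and no fold limit gave 1 higher in muscle. Leaving out intervals with values that are not whole, which sets a site to 0 in some libraries and not others, gave 0 higher in kidney and 0 lower in heart. Without either heart library, 0 were lower in heart, so that call at 105583780 rests on both.

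Of the window values, 195 kept their direction and none passed an adjusted p of 0.05. The Serpina3 window in lung, -0.01 on the log2 scale against other tissues, became 0.65 with total counts, 0.51 with those without chromosome M, 0.29 without the most abundant sites, 0.15 without values that are not whole and 0.0895 on the dominant strand. On the dominant strand the middle window in adipose went from 2.07 to -0.83 and in kidney from -0.78 to 0.40, and the Serpina3 window in adipose from 0.15 to -0.0226. The Serpina1 genotype difference went from 0.22 to -0.14 without values that are not whole. Over tissue pairs left out, the genotype difference ranged from 0.03 to 0.47 in the Serpina1 window, 0.20 to 0.77 in the middle window and 0.36 to 0.66 in the Serpina3 window. That of the ratio, 0.29, ranged from -0.12 (without the heart pair) to 0.53 over tissue pairs left out. At single sites, the genotype difference at 105132884 went from 0.50 to -0.30 without values that are not whole and to -0.0791 with no tissue term, where that at 105325120 went from 0.61 to -0.055. Causes were not tested. A further 26 values of named sites lost their call, mostly kidney calls. Direction and call status were unchanged for 205, among them genotype differences that had no call to keep. Heart and muscle held 6 to 14 tags in the cluster per library, so their shares and ratios are imprecise.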
